A study of Mus musculus with 12 samples.

Results

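The 30 genes described here encode enzymes and regulators of sterol and fatty acid synthesis that sterol regulatory element binding proteins (SREBPs) drive. They were chosen by symbol, from knowledge of the pathway and with earlier results of these data known. All 30 were found among the 54582 gene symbols held by both count tables of the study. They comprised 7 genes of the mevalonate pathway, 3 that make squalene and lanosterol, 8 that turn lanosterol into cholesterol, 4 regulators or transporters, 4 of fatty acid synthesis and 4 desaturases. All 30 passed the filter on low counts in every comparison.

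The study sequenced poly(A) RNA of primary mouse macrophages grown from tibial bone marrow, from animals that the labels put at 6 to 8 weeks. It had 4 groups of 3 libraries: KO + AC, WT + AC, KO and WT. KO stands for cells of Kif13b-/- mice, which the genotype field of the labels calls Kif13b knock down, and no promoter or Cre is named. KIF13B is a kinesin motor that moves cargo along microtubules. AC stands for a co-culture of 90 min with 5 apoptotic cells per macrophage, made from Jurkat, a line of human leukaemic T cells. KO and WT cells had no apoptotic cells, and their medium was DMEM with serum that the labels put at 12, 13 and 14% for the KO and 10, 10 and 11% for the WT libraries, values that climb by 1 from library to library and are doubtful. Whether a group's libraries stem from different animals or cultures is not stated, so the p-values measure the spread between libraries, which may be technical.

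Cells make cholesterol from acetyl-CoA through mevalonate, farnesyl diphosphate, squalene and lanosterol. When sterols run low in the endoplasmic reticulum, SCAP escorts SREBPs to the Golgi, where they are cut and released to the nucleus to switch on these genes, and when sterols are plentiful INSIG proteins hold the complex back. SREBP2, encoded by Srebf2, acts mostly on sterol genes, and SREBP1, encoded by Srebf1, mostly on fatty acid genes. A macrophage that engulfs dying cells takes in their cholesterol and fatty acids as well as its own supply.

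SREBPs bind the sterol regulatory element, often beside sites of NF-Y, which reads CCAAT, and of Sp1, which reads GGGCGG. The promoters below let the motifs be seen in place and are not a typical sample of the members. Those of Hmgcs1, Msmo1 and Hsd17b7 hold the relaxed sterol element described here, found in 4 of 23 members, and those of Srebf2 and Fasn do not. Each runs 5′ to 3′ on the gene's own strand over the 250 bases before the start of transcription, from RefSeq on GRCm38.p6. Capitals mark CCAAT on either strand and the motif TCACNNCAC, a relaxed core of the sterol regulatory element that was chosen after the windows were seen. Msmo1 has 1 place where both motifs overlap, and Fasn has a place where CCAAT on the 2 strands overlaps.
Hmgcs1, chr13:119690101-119690350, plus strand: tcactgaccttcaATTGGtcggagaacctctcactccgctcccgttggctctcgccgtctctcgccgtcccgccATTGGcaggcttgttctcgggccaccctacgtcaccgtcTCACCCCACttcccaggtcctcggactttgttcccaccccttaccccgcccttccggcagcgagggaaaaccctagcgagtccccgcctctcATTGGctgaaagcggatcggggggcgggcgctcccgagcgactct
Msmo1, chr8:64733579-64733828, minus strand: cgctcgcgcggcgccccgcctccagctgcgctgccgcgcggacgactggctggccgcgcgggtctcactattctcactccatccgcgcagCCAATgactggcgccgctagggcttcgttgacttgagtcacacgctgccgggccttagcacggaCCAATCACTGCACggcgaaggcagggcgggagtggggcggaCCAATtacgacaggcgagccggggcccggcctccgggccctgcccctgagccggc
Hsd17b7, chr1:169969206-169969455, minus strand: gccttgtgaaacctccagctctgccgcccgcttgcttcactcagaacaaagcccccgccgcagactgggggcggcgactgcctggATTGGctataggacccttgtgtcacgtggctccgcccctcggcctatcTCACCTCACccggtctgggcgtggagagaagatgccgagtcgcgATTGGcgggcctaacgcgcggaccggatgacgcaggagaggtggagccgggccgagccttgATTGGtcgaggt
Srebf2, chr15:82147019-82147268, plus strand: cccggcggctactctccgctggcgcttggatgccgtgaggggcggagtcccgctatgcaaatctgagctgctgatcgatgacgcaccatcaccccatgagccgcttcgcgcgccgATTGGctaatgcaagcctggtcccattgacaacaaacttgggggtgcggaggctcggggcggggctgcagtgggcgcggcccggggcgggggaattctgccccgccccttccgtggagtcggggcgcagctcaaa
Fasn, chr11:120824548-120824797, minus strand: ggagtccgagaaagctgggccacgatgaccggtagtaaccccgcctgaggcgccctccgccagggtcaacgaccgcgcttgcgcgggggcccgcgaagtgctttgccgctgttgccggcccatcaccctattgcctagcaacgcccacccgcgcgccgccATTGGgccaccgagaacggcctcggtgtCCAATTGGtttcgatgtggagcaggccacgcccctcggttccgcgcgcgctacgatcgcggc

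RefSeq windows of 300 bases, from 250 before to 50 after a start, were matched to 23 of the 30 members. The stricter core TCACNCCAC, searched on both strands, stood in the window of 1 of these 23 genes (4.35%), Hmgcs1, against 1.44% of 27025 genes. The relaxed TCACNNCAC stood in 4 members (17.4%), Dhcr7, Hmgcs1, Hsd17b7 and Msmo1, against 4.37% of all genes. Its first base lay at -130, -137, -117 and -92 relative to the start in these 4 genes. CCAAT was found in 19 members (82.6%), against 41.1% of all genes, and GGGCGG also in 19, against 38.2%. A match describes letters in a window and says nothing about binding.

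Some facts of the whole series touch every value below. Total counts ran from 17000976 to 17285594 in the libraries with apoptotic cells and from 18256622 to 18770757 in those without. With apoptotic cells 31787 to 32801 symbols had at least 1 count, without them 18335 to 18540, and the common biological coefficient of variation was 0.0294 with and 0.117 without them. All AC libraries are in 1 count table and all others in the second, so condition and table cannot be told apart. Kif13b itself was lower in KO than WT libraries (log2 fold change -0.59, adjusted p = 0.0087) but higher in the libraries labelled KO + AC than in WT + AC libraries (0.13, adjusted p = 0.0261), which goes against that label. The 7 macrophage markers summed to 14600 to 14800 counts per 1e6 counts (CPM) in KO + AC, 12100 to 12800 in WT + AC, 30400 to 37900 in KO and 29900 to 32400 CPM in WT libraries, and all 7 had counts in each group. In such bulk samples fewer cells of a type and less RNA per cell cannot be told apart.

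The 30 members together took 0.157 to 0.159% of all counts in KO + AC, 0.166 to 0.170% in WT + AC, 0.125 to 0.145% in KO and 0.129 to 0.152% in WT libraries. Levels below are CPM scaled over all 12 libraries, given for libraries 1, 2 and 3 of a group in that order. Per kilobase of exon in WT macrophages, the highest levels were those of Insig1, an anchor that keeps SREBPs in the endoplasmic reticulum, at 36.6 CPM per kb, of Ebp, the sterol isomerase, at 36.4, and of Msmo1, a methylsterol oxidase, at 29.0 CPM per kb. The lowest were those of Acaca, the acetyl-CoA carboxylase that commits carbon to fatty acids, at 0.99, of Elovl6, a fatty acid elongase, at 0.879, and of Fdps, farnesyl diphosphate synthase, at 0.309 CPM per kb. Insig1 and Ebp overlapped per kilobase, and the levels of genes in 1 pathway thus stood far apart. The heat map of the members by library shows the pattern the rest describes: the columns with apoptotic cells part from the others in most roles, and the genotypes part in single genes.

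**Figure D1:**
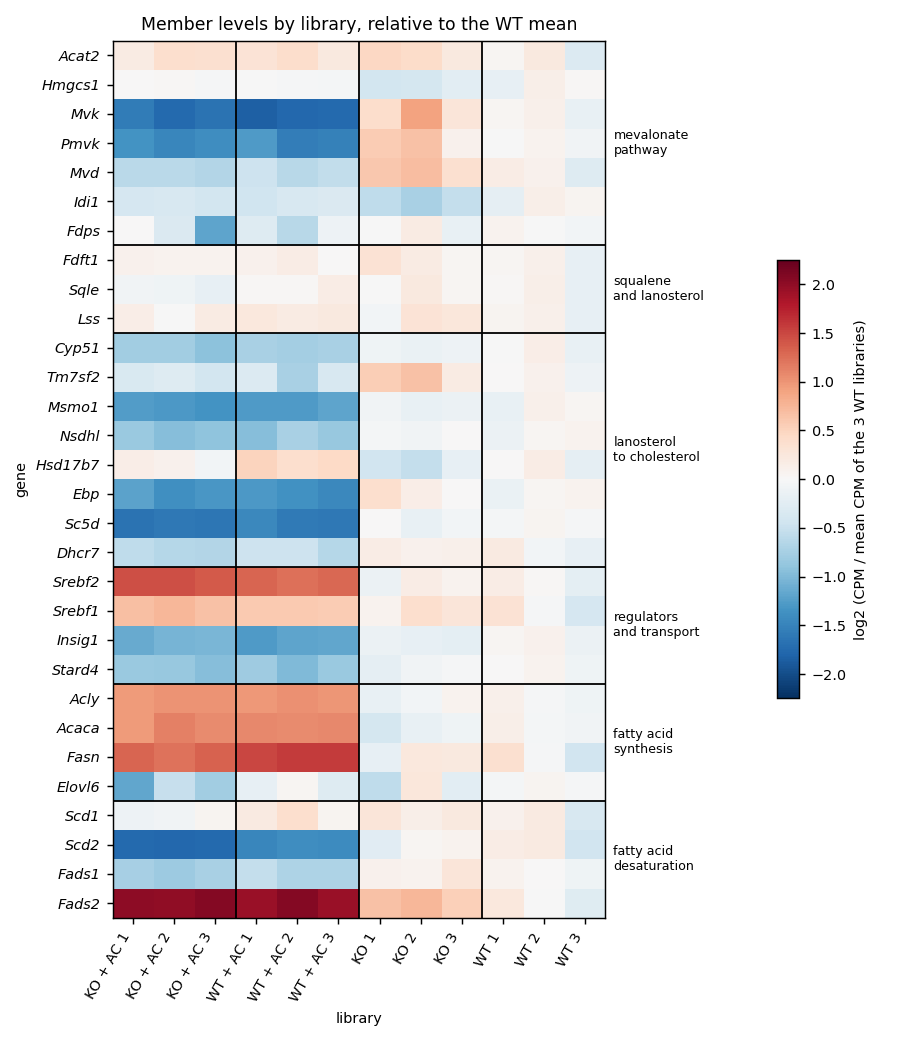
Level of each of the 30 members (rows, grouped by role) in each of the 12 libraries (columns), as log2 of CPM over the mean CPM of the 3 WT libraries; red is higher and blue lower. Srebf2, Acly, Acaca, Fasn and Fads2 are red in all 6 libraries with apoptotic cells, and Mvk, Pmvk, Msmo1, Ebp, Sc5d, Insig1 and Scd2 are blue in all 6.

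The first comparison sets the libraries labelled KO against the WT libraries, in macrophages without apoptotic cells. Of the 30 members 5 rose in KO macrophages, Fads2, Mvd, Mvk, Pmvk and Tm7sf2, and 1 fell, Idi1, by edgeR's quasi-likelihood test at an adjusted p under 0.05. That is 20% of the members, beside 16.2% of the 12640 genes tested, of which 7.94% were called higher and 8.24% lower. The median log2 fold change of the members was 0.0637, and that of all genes 0.0244. Groups did not overlap in 11 members (36.7%), 7 higher and 4 lower, beside 33.6% of all genes.

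The mevalonate pathway held 4 of the 6 calls, and its members went in opposite directions. Mvk, the kinase that phosphorylates mevalonate first, had 36.3, 51.4 and 33.2 CPM in KO libraries and 28.3, 29.9 and 24.4 CPM in WT libraries. Every KO library lay above every WT library, with KO library 2 well above the other two. The log2 fold change was 0.55 ± 0.15 (SE, adjusted p = 0.0191). Pmvk, which adds the second phosphate, had 32.4, 34.6 and 23.4 CPM in KO and 21.7, 23.1 and 20.7 CPM in WT libraries, where KO library 3 was barely above the highest WT library. Its log2 fold change was 0.47 ± 0.15 (adjusted p = 0.0347).

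Mvd, the decarboxylase that makes isopentenyl diphosphate, had 66.6, 71.1 and 56.6 CPM in KO and 48.96, 46.9 and 35.8 CPM in WT libraries, with no overlap and WT library 3 the lowest. It rose by 0.56 ± 0.14 on the log2 scale (adjusted p = 0.0111). Idi1, the isomerase that acts on the product of Mvd, moved the other way. It had 21.04, 18.9 and 21.6 CPM in KO libraries and 27.2, 34.3 and 32.5 CPM in WT libraries, so each KO library was below each WT library. Its log2 fold change was -0.61 ± 0.14 (adjusted p = 0.00718). Hmgcs1, which condenses acetyl-CoA units ahead of mevalonate and whose promoter is printed above, had 62.6, 63.2 and 70.6 CPM in KO and 73.7, 91.4 and 84.7 CPM in WT libraries. These groups did not overlap either, but its log2 fold change of -0.34 ± 0.12 missed the threshold (adjusted p = 0.0579). Acat2, the thiolase that starts the pathway, was at 0.37 (adjusted p = 0.0906), and Fdps at 0.00483 (adjusted p = 0.995).

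The later sterol steps gave 1 call. Tm7sf2, a sterol reductase of the endoplasmic reticulum, had 15.6, 16.7 and 12.1 CPM in KO and 10.7, 11.4 and 9.79 CPM in WT libraries, with no overlap, and rose by 0.48 ± 0.16 (adjusted p = 0.0402). The other 7 genes from lanosterol to cholesterol lay between -0.38 (Hsd17b7) and 0.19 (Ebp) on the log2 scale and did not pass. Of the squalene and lanosterol enzymes, Fdft1, squalene synthase, had the smallest p, with 73.3, 66.7 and 60.98 CPM in KO and 60.6, 64.01 and 51.9 CPM in WT libraries (0.19 ± 0.13, adjusted p = 0.304). Its groups overlapped.

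Among regulators and fatty acid genes Fads2 alone was called. Fads2, the delta-6 desaturase of polyunsaturated fatty acids, had 17.6, 18.6 and 16.2 CPM in KO and 13.2, 11.01 and 9.17 CPM in WT libraries, and rose by 0.65 ± 0.15 (adjusted p = 0.00989). No library of a group reached the other group. Srebf1 had 50.4, 61.5 and 57.1 CPM in KO and 59.4, 46.4 and 36.6 CPM in WT libraries, an overlap, at 0.25 ± 0.15 (adjusted p = 0.24). Acaca had 12.8, 14.99 and 15.7 CPM in KO and 18.5, 16.3 and 15.9 CPM in WT libraries and did not overlap, at -0.22 ± 0.14 (adjusted p = 0.299). Srebf2 stood at 0.0407, with a 95% interval of -0.21 to 0.29, and Fasn, fatty acid synthase, at 0.11, with an interval of -0.22 to 0.44.

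None of the 30 was called higher without KO library 1, without WT library 3 or without KO libraries 1 and 2 together, with 5, 5 and 3 members higher at an unadjusted p under 0.05. Calls over all genes fell in the same settings, to 2.42%, 2.87% and 0.72%, and the log2 fold change of Fads2 lay between 0.53 and 0.79 over its 13 alternatives. Leaving out KO libraries 1 and 2 keeps 1 KO library, which is then assumed to vary like the other groups. DESeq2 called 4 higher. The call of Idi1 held in 12 of 13 alternatives and ended without KO libraries 1 and 2 together (adjusted p = 0.214). Fold changes of all genes fell with exonic length, with a median of 0.285 in the shortest eighth and -0.227 in the longest, and with length taken out Pmvk was no longer called (adjusted p = 0.0994) while Hmgcs1 was (-0.35, adjusted p = 0.0492), so that 4 members were higher and 2 lower, beside 5.64% and 6.65% of all genes. Fibroblast markers moved with the same contrast, with 4 of 7 higher in KO and sums of 767 to 994 CPM in KO and 561 to 696 CPM in WT libraries, all 7 having counts in both groups, and their part in these results was not tested. The same holds for serum, which the labels make higher in each KO library.

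The second comparison is that of the genotypes with apoptotic cells. Of the 30 members 7 fell in the libraries labelled KO + AC, Scd2, Fasn, Sqle, Elovl6, Hsd17b7, Scd1 and Fads1, and 1 rose, Srebf2. That is 26.7% of the members, beside 11.3% of the 16467 genes tested, of which 6.58% were called higher and 4.75% lower. The differences were small: the median absolute log2 fold change was 0.102 for the members and 0.110 for all genes. Groups did not overlap in 10 members (33.3%), 3 higher and 7 lower, beside 27.8% of all genes.

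Fatty acid genes made up 5 of the 7 falls, of which those of Scd1 and Fads1 held in only 7 and 4 of 12 alternatives and were lost by DESeq2. Scd2, a stearoyl-CoA desaturase that makes oleate, had 41.8, 40.98 and 41.8 CPM in KO + AC libraries and 50.9, 52.96 and 52.2 CPM in WT + AC libraries. The 2 groups lay far apart next to their spread, with a log2 fold change of -0.35 ± 0.0466 (adjusted p = 1.6e-07). Fasn had 48.1, 45.7 and 49.03 CPM in KO + AC and 55.5, 57.7 and 57.9 CPM in WT + AC libraries (-0.28 ± 0.0457, adjusted p = 7.6e-06). Each KO + AC library was again below each WT + AC library.

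Elovl6, which lengthens palmitate, had 2.52, 3.96 and 3.27 CPM in KO + AC and 4.98, 5.82 and 4.64 CPM in WT + AC libraries, the largest fall of a member here at -0.68 ± 0.15 (adjusted p = 0.00095) and one at a low level. Scd1, the second stearoyl-CoA desaturase, had 13.5, 13.8 and 15.2 CPM in KO + AC and 16.7, 19.04 and 15.2 CPM in WT + AC libraries and fell by 0.28 ± 0.08 (adjusted p = 0.0128). Here KO + AC library 3 and WT + AC library 3 were nearly level, so the groups overlapped. Fads1, the delta-5 desaturase, had 46.9, 44.9 and 47.8 CPM in KO + AC and 54.7, 48.9 and 48.9 CPM in WT + AC libraries, at -0.15 ± 0.0489 (adjusted p = 0.0345). Acly, Acaca and Fads2 did not pass, at -0.0338, -0.0454 and 0.0203.

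The sterol genes gave 2 falls. Sqle, the squalene epoxidase and a rate-controlling step, had 58.99, 58.1 and 54.6 CPM in KO + AC and 63.2, 63.5 and 69.8 CPM in WT + AC libraries (-0.22 ± 0.046, adjusted p = 0.000579), with no overlap. Hsd17b7, a sterol ketoreductase, had 10.2, 9.79 and 8.73 CPM in KO + AC and 12.9, 11.9 and 12.5 CPM in WT + AC libraries (-0.40 ± 0.0892, adjusted p = 0.00108). All 3 KO + AC libraries were lower. No gene of the mevalonate pathway was called, by edgeR or by DESeq2, and none had an unadjusted p under 0.05. Its smallest p was that of Mvd, with 28.9, 28.7 and 27.8 CPM in KO + AC and 31.8, 28.5 and 29.8 CPM in WT + AC libraries (-0.10 ± 0.0574, adjusted p = 0.3).

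Srebf2, the gene of SREBP2, went up while these enzyme genes went down. It had 239, 240.5 and 228 CPM in KO + AC and 218, 208 and 214 CPM in WT + AC libraries, with no overlap, at 0.12 ± 0.0351 (adjusted p = 0.0173). Insig1 and Srebf1 also had every KO + AC library above every WT + AC library without passing, at 0.12 ± 0.0465 (adjusted p = 0.0898) and 0.0873 ± 0.0413 (adjusted p = 0.186). Insig1 had 51.9, 54.7 and 55.7 CPM in KO + AC and 46.9, 49.7 and 50.3 CPM in WT + AC libraries. Stard4, a carrier that moves cholesterol between membranes, was at -0.0289 (adjusted p = 0.873).

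These calls came from a fit within the table with apoptotic cells. In a joint fit of all 12 libraries, whose estimate of the spread is shared, none of the 30 was called, 6 were lower at an unadjusted p under 0.05 and 0.934% of all genes were called. The call of Srebf2 ended when any 1 of KO + AC library 1, KO + AC library 2 and WT + AC library 2 was left out. Scd2, Fasn, Sqle, Elovl6 and Hsd17b7 each kept their call in the other 11 of 12 alternatives. With length taken out 3 members were higher and 6 lower, beside 11.1% and 3.82% of all genes. Markers of other cells differed in this contrast too. Fibroblast markers were lower in KO + AC libraries for 5 of the 6 tested, with sums of 250 to 270 CPM in KO + AC and 369 to 406 CPM in WT + AC libraries, macrophage markers were higher for 4 of 7, and T cell markers summed to 69.8 to 76.6 CPM in KO + AC and 75.5 to 84.8 CPM in WT + AC libraries. All markers of these 3 lists had counts in both groups, and their part in the falls was not tested. The plot of genotype effects sets both contrasts side by side: no gene is called in both panels.

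**Figure D2:**
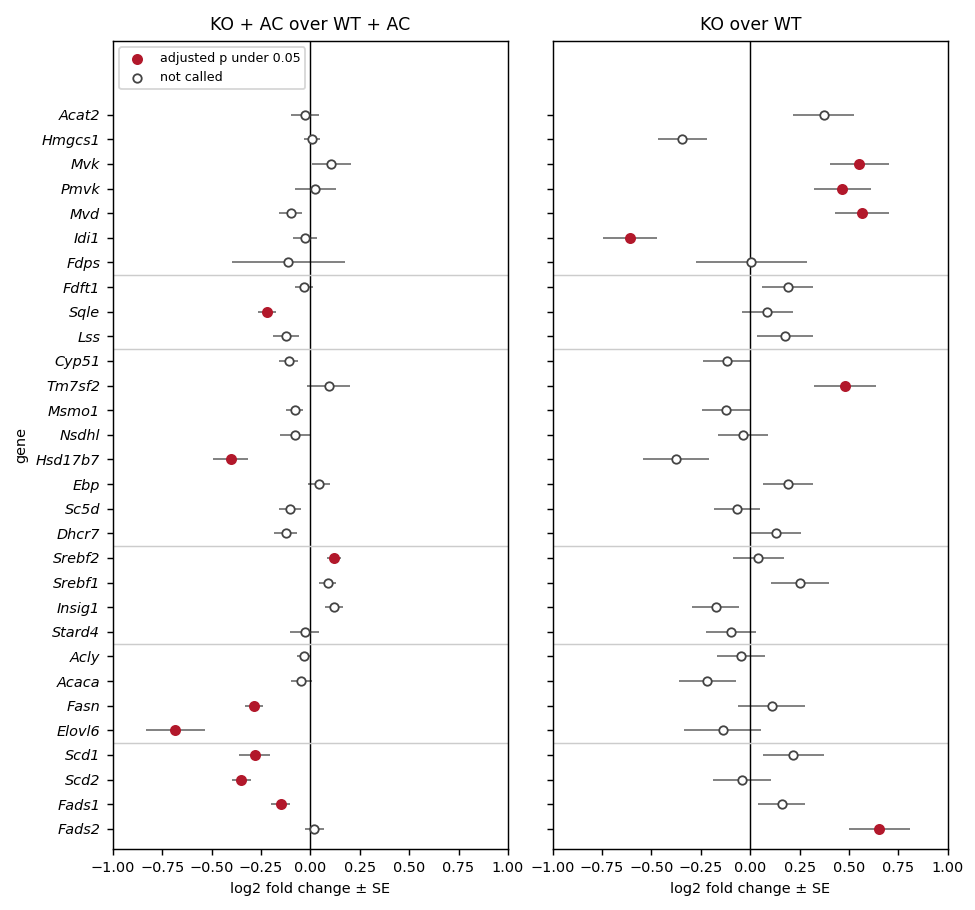
Log2 fold change (x axis) of each member (y axis, in order of role), KO + AC over WT + AC on the left and KO over WT on the right; bars are ± 1 SE and filled red points have an adjusted p under 0.05. On the left 7 red points lie below 0 and Srebf2 above it, and on the right 5 red points lie above 0 and Idi1 below it.

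The effect of apoptotic cells was taken from the joint fit, in each genotype. Most genes tested were called in it, 86.3% of 16810 in KO and 85.0% in WT macrophages, and the members' shares were near these. In KO macrophages 9 members rose and 16 fell with apoptotic cells (83.3% called), and in WT macrophages 8 rose and 15 fell (76.7% called). Of all genes 49.6% rose and 36.7% fell in KO, and 48.3% rose and 36.7% fell in WT. The median member changed by -0.54 in KO and -0.35 in WT cells, against 0.32 and 0.25 for all genes. Another scaling, by DESeq2's size factors, moved the median of all genes by 0.0898 in KO and 0.109 in WT, which is as large as the smaller changes named below. Under that scaling 11 members rather than 8 were higher in WT, Lss, Fdft1 and Scd1 being the ones gained, and the fall of Sqle in KO lost its call. Groups did not overlap in 25 of the 30 members in either genotype (83.3%), beside 86.7% of all genes in KO and 86.6% in WT.

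Most members late in cholesterol synthesis fell, while Lbr, a sterol gene outside the member list, had higher means with apoptotic cells. These means were 17.5 CPM in KO + AC and 16.7 CPM in WT + AC, against 8.95 CPM in KO and 12.1 CPM in WT libraries. Of the 8 genes from lanosterol to cholesterol 7 fell in both genotypes and Hsd17b7 rose in both, and the summed level of the 8 was 246 to 262 CPM in KO + AC, 262 to 269 CPM in WT + AC, 522 to 565 CPM in KO and 520 to 581 CPM in WT libraries. Sc5d, the desaturase that acts near the end of the pathway, had 30.2, 31.7 and 31.04 CPM in KO + AC and 35.1, 31.7 and 31.4 CPM in WT + AC libraries, against 96.8, 85.4 and 92.3 CPM in KO and 93.5, 101 and 93.9 CPM in WT libraries. All 6 libraries with apoptotic cells were far below the other 6, at log2 fold changes of -1.56 ± 0.0878 in KO and -1.55 ± 0.0872 in WT (adjusted p = 1.98e-15 and 2.69e-15).

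Ebp had 36.6, 32.2 and 34.2 CPM in KO + AC and 34.5, 32.8 and 30.96 CPM in WT + AC, against 109.9, 93.4 and 84.7 CPM in KO and 76.2, 87.2 and 89.2 CPM in WT libraries, and fell by 1.48 ± 0.0999 in KO and 1.36 ± 0.0998 in WT on the log2 scale. Msmo1, with the relaxed sterol element in its printed promoter, had 74.6, 72.4 and 69.7 CPM in KO + AC and 73.9, 73.4 and 77.97 CPM in WT + AC, against 168, 159 and 163 CPM in KO and 158, 194 and 182 CPM in WT libraries (-1.18 ± 0.0865 in KO, -1.25 ± 0.0863 in WT). Both genes were lower in each library with apoptotic cells than in any without. Cyp51, the lanosterol demethylase, Nsdhl, a sterol dehydrogenase, Dhcr7, which makes cholesterol in the last step, and Tm7sf2 fell by smaller amounts, between 0.71 and 0.86 in KO and between 0.46 and 0.85 in WT. Hsd17b7, whose promoter also holds the relaxed element, rose by 0.44 ± 0.13 in KO and 0.44 ± 0.12 in WT.

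The mevalonate pathway was split. Mvk had 9.29, 8.18 and 8.73 CPM in KO + AC and 7.72, 8.05 and 8.18 CPM in WT + AC, against 36.3, 51.4 and 33.2 CPM in KO and 28.3, 29.9 and 24.4 CPM in WT libraries, the largest fall of a member in either genotype (-2.20 ± 0.13 in KO, -1.78 ± 0.14 in WT). Pmvk had 8.61, 7.92 and 8.27 CPM in KO + AC and 8.99, 7.41 and 7.58 CPM in WT + AC libraries (-1.86 ± 0.13 in KO, -1.45 ± 0.13 in WT). All libraries with apoptotic cells were below all others for both kinases. Mvd, the next enzyme, fell by 1.19 in KO and 0.55 in WT. By contrast Hmgcs1 rose in KO (0.35 ± 0.0883) and stood at -0.0271 ± 0.0874 in WT, and Fdps did not pass in either (-0.42 ± 0.28 and -0.33 ± 0.28).

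The 3 genes of squalene and lanosterol lay between -0.21 and 0.21 on the log2 scale in both genotypes. Sqle fell by 0.21 ± 0.0938 in KO (adjusted p = 0.0429) and stood at 0.0725 ± 0.0933 in WT (adjusted p = 0.469), and the KO call held in only 5 of 12 alternatives. Lss, the cyclase that makes lanosterol, had 22.6, 21.7 and 22.4 CPM in WT + AC and 19.9, 20.6 and 16.9 CPM in WT libraries without passing (0.21 ± 0.11, adjusted p = 0.0668). Fdft1 had intervals of -0.28 to 0.0803 in KO and -0.0873 to 0.28 in WT on the log2 scale. The enzymes before and after these steps included the largest falls. With the length correction described below, all 3 were called lower in KO and 2 of the 3 in WT, with medians of -0.565 and -0.259.

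The regulators parted in the same way in both genotypes. Srebf2 had 80.2, 98.1 and 92.5 CPM in KO and 99.2, 89.2 and 75.3 CPM in WT libraries. All 6 libraries with apoptotic cells, given above, were well over these. It rose by 1.39 ± 0.0956 in KO and 1.28 ± 0.0954 in WT (adjusted p = 1.73e-13 and 1.1e-12), and Srebf1 by 0.45 ± 0.11 and 0.59 ± 0.12. Insig1, itself an SREBP target, had 103, 100.1 and 97.1 CPM in KO and 116, 120.5 and 103 CPM in WT libraries and fell by 0.89 ± 0.0848 in KO and 1.21 ± 0.0851 in WT. Stard4 fell by 0.78 and 0.88. The genes of the 2 factors and 2 of their targets thus moved in opposite directions.

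Of the 4 genes of fatty acid synthesis, Acly, Acaca and Fasn rose in both genotypes. With the length correction described below Acaca turned to -0.12 in KO and -0.0999 in WT without a call, Fasn lost its call in KO, and the median of the 4 was 0.043 in KO and 0.301 in WT, against 1.11 and 1.04 uncorrected. Acly, which makes cytosolic acetyl-CoA from citrate, had 229, 237 and 237 CPM in KO + AC and 232, 241 and 235 CPM in WT + AC, against 105, 114 and 124 CPM in KO and 128, 116 and 110.2 CPM in WT libraries (1.04 ± 0.085 in KO, 1.00 ± 0.0848 in WT). Each library with apoptotic cells was above every library without. Acaca had 32.9, 37.1 and 35.4 CPM in KO + AC and 35.7, 35.5 and 35.9 CPM in WT + AC libraries (1.27 ± 0.10 in KO, 1.08 ± 0.0991 in WT), and Fasn had 17.2, 22.9 and 22.8 CPM in KO and 24.9, 19.2 and 14.4 CPM in WT libraries (1.18 ± 0.13 in KO, 1.55 ± 0.13 in WT). Elovl6 did not join them, with a fall of 0.65 ± 0.19 in KO (adjusted p = 0.00258) and -0.14 ± 0.17 in WT (adjusted p = 0.466).

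The desaturases split within pairs of related genes on chromosome 19. Fads1 (chr19:10182888-10196877) and Fads2 (chr19:10062765-10101746) lie near each other, as do Scd2 (chr19:44293674-44306864) and Scd1 (chr19:44394455-44407879, all GRCm38). Fads2 had 44.9, 44.2 and 46.6 CPM in KO + AC and 42.7, 46.4 and 42.5 CPM in WT + AC libraries and rose by 1.37 ± 0.10 in KO and 1.98 ± 0.11 in WT, while Fads1 fell by 0.92 ± 0.0886 and 0.63 ± 0.088. Scd2 had 117, 144 and 147 CPM in KO and 156, 160.1 and 104 CPM in WT libraries and fell by 1.71 ± 0.12 and 1.43 ± 0.12, while Scd1 did not pass in either genotype (-0.25 ± 0.12 and 0.22 ± 0.12). The plot of the effect of apoptotic cells shows both genotypes gene by gene, and the pairs of points lie close together for most members.

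**Figure D3:**
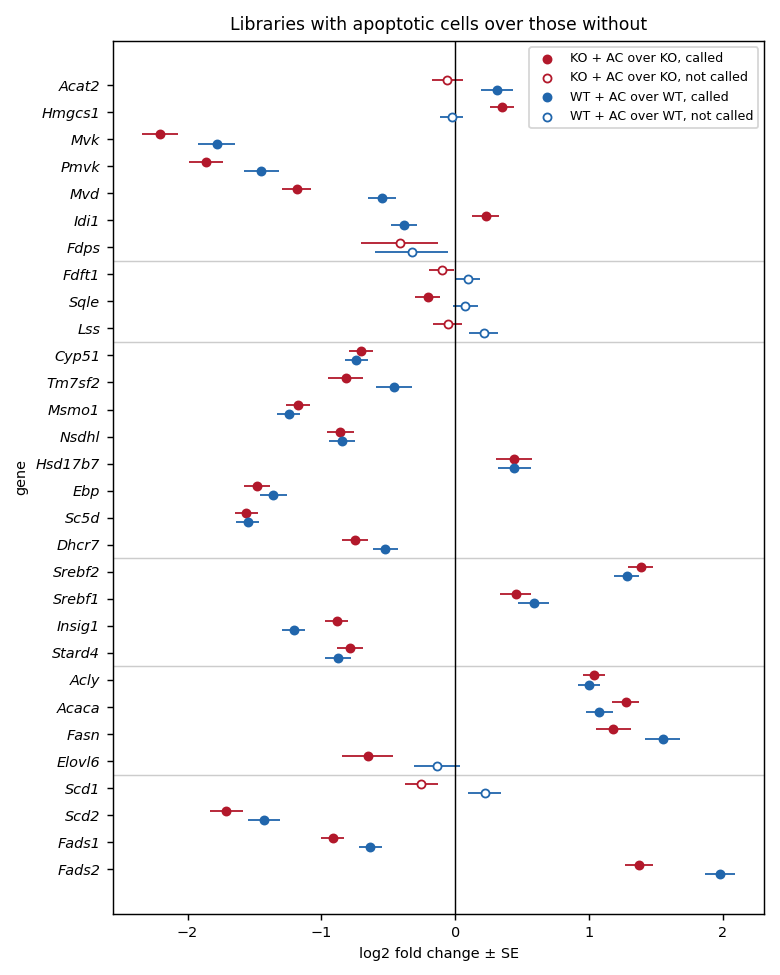
Log2 fold change (x axis) of each member (y axis, in order of role) in libraries with apoptotic cells over those without, for KO (red) and WT macrophages (blue); bars are ± 1 SE and filled points have an adjusted p under 0.05. Mvk lies farthest left in both genotypes, at -2.20 and -1.78, and Fads2 in WT farthest right, at 1.98.

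Exonic length moved with this contrast. The median log2 fold change of all genes was 4.32 in KO and 4.51 in WT in the shortest eighth of the genes, whose median length is 549 bases, -0.65 and -0.57 in the third, and 0.98 and 0.74 in the longest, at 11031 bases. Across the 30 members, which share libraries, log2 fold change and log2 length had r = 0.532 in KO and r = 0.482 in WT, as a description. With a smooth trend on length taken out of the counts, Acaca, the longest member at 17074 bases, went to -0.12 in KO and -0.0999 in WT and lost its call. Fasn lost its call in KO (0.21, adjusted p = 0.129) and kept it in WT (0.71, adjusted p = 1.59e-05). Hsd17b7 lost it in both, and Srebf1 and Hmgcs1 in KO.

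Lss, the third longest member, was called lower in both genotypes after this correction (-1.02 and -0.61). The rises of Srebf2 (0.80 and 0.77), Acly (0.72 and 0.70) and Fads2 (1.42 and 1.95) kept their calls, as did all 7 falls among the genes from lanosterol to cholesterol. Corrected, 4 members were higher and 19 lower in KO, and 6 higher and 19 lower in WT, beside 37.7% of all genes higher and 46.8% lower in KO and 35.9% and 48.4% in WT. The plot of fold change against length shows the line of all genes climbing over the range in which most members lie.

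**Figure D4:**
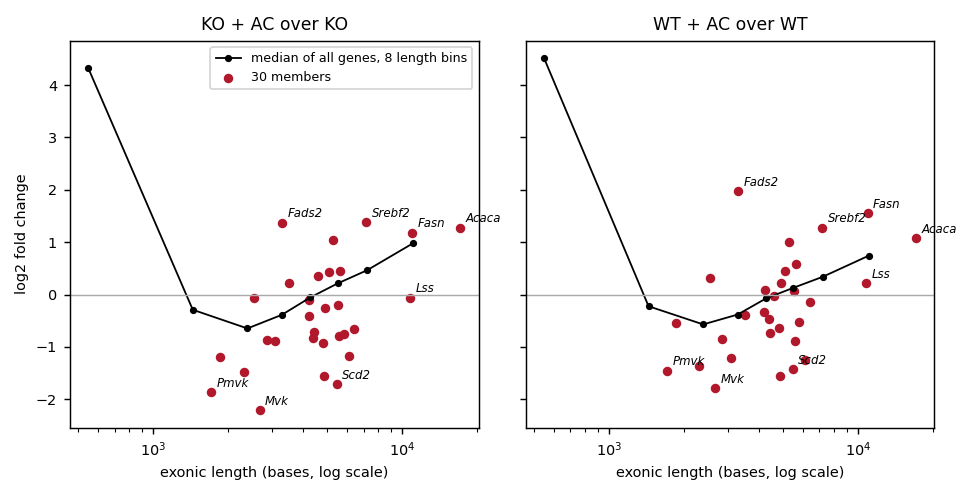
Log2 fold change with over without apoptotic cells (y axis) against exonic length in bases (x axis, log scale) in KO (left) and WT macrophages (right); red points are the 30 members and the black line joins the medians of all genes in 8 bins of length. Acaca lies beyond the long end of the line, and Mvk, Pmvk and Scd2 lie well below it.

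Markers of other cells differed between these conditions. The 12 T cell markers summed to 69.8 to 76.6 CPM in KO + AC and 75.5 to 84.8 CPM in WT + AC libraries, against 44.0 to 59.4 CPM in KO and 29.8 to 38.8 CPM in WT libraries. With apoptotic cells 6 of the 8 tested were higher and 1, Lat, was lower in both genotypes. Lat made up most of the sums without apoptotic cells, so the sums understate the rise of the others. Its mean was 14.4 CPM in KO + AC, 17.2 in WT + AC, 51.4 in KO and 33.5 CPM in WT libraries. In the same order Lck had 22, 26.1, 1.01 and 0.751 CPM, and Zap70 21.7, 21.3, 0.112 and 0.102 CPM. Rag1 was at 0 in KO, and Cd3d, Cd7 and Rag1 were at 0 in WT libraries. The fibroblast markers, whose sums stand above, were lower with apoptotic cells for 6 of 7 in KO and 5 of 7 in WT macrophages. Adipocyte markers, of cells rich in these enzymes, summed to at most 1.25 CPM in any library. Jurkat RNA that was counted on mouse genes cannot be told apart from macrophage RNA in these tables, and the part of these markers in the results was not tested.

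The interaction asks whether apoptotic cells changed a gene differently in KO and WT macrophages, and 4 of the 30 members passed (13.3%), beside 12.7% of 16810 genes, of which 7.55% were higher and 5.13% lower. Of these, Idi1 and Hmgcs1 were higher and Mvd and Fads2 lower, where higher means that KO + AC over KO exceeds WT + AC over WT. For each of the 4 the difference between genotypes was larger without apoptotic cells than with them, as the plot of single libraries shows for 3 of these genes. The contrast uses the same libraries as the ones above and is no separate evidence for them.

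Idi1 (ENSMUSG00000058258.14, chr13:8885501-8892451) had 23.98, 24.5 and 23.6 CPM in KO + AC and 22.9, 24.3 and 25.03 CPM in WT + AC libraries, which overlapped. It rose with apoptotic cells in KO (0.23 ± 0.10) and fell in WT (-0.38 ± 0.0984), for an interaction of 0.61 ± 0.14 (adjusted p = 0.00583). The call held in all 18 alternatives run. Mvd (ENSMUSG00000006517.5, chr8:122433601-122443422) fell in both genotypes, by 1.19 in KO and 0.55 in WT, with an interaction of -0.64 ± 0.15 (adjusted p = 0.00657).

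Fads2 (ENSMUSG00000024665.8) rose less in KO than in WT macrophages, with an interaction of -0.60 ± 0.15 (adjusted p = 0.00989). Mvd and Fads2 were each called in 17 of 18 alternatives, and both lost the call without KO libraries 1 and 2 together (adjusted p = 0.0662 and 0.0549), where the lone KO library is assumed to vary like the other groups. Hmgcs1 (ENSMUSG00000093930.2, chr13:119690379-119708260) had 83.97, 84.3 and 82.04 CPM in KO + AC and 82.2, 81.95 and 80.9 CPM in WT + AC libraries, and its interaction of 0.38 ± 0.12 (adjusted p = 0.0448) held in 4 of 18 alternatives only. In the other roles the smallest p belonged to Insig1 (0.32 ± 0.12, adjusted p = 0.0743), Sqle (-0.28, adjusted p = 0.171), Elovl6 (-0.52, adjusted p = 0.195) and Tm7sf2 (-0.36, adjusted p = 0.224). None of the 8 members called between KO + AC and WT + AC libraries passed in the interaction, so their genotype effect was not shown to differ between the conditions.

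**Figure D5:**
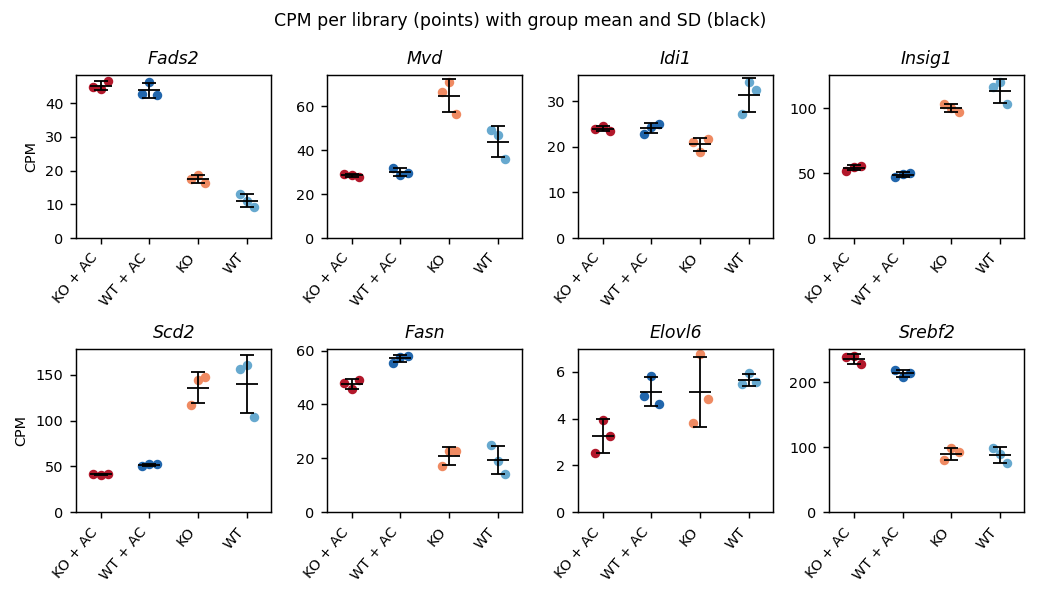
CPM (y axis, from 0) of 8 members in each library, with the 3 libraries of KO + AC, WT + AC, KO and WT as points and the group mean and SD in black. Fads2, Mvd and Idi1 do not overlap between KO and WT but overlap between KO + AC and WT + AC, while Scd2, Fasn and Elovl6 are lower in KO + AC than in WT + AC.

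Some members share sequence with other genes, so their counts are uncertain. Of all stretches of 75 bases of the annotated transcripts, 33.9% of those of Acat2 also occur in another gene, mostly Acat3, 26.8% of those of Acaca, mostly in the predicted gene Gm5182, and 23.6% of those of Idi1, mostly in Gm13502. The share was 23.5% for Fdps, which overlaps Gm43738 on the same strand, 21.8% for Fdft1, which overlaps Ctsb on the opposite strand, 9.79% for Hmgcs1 and 8.83% for Tm7sf2. It was at most 3.15% for the other 23 members. The strand setting of the counting is not given in the sources used here.

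Other genes of the same pathways were set beside the members. Of 31 such genes, 16 of sterol synthesis and SREBP control and 15 of fatty acid metabolism, 30 were tested without apoptotic cells, of which none rose and 3 fell in KO macrophages. DESeq2 called none higher as well, and 4 were higher at an unadjusted p under 0.05. Of all genes 7.94% were called higher and 8.24% lower. The falls were Acsl4, an acyl-CoA synthetase for arachidonate (-0.60, adjusted p = 0.00432), Mbtps2, a protease that cuts SREBPs (-0.42, adjusted p = 0.0334), and Ggps1, geranylgeranyl diphosphate synthase (-0.43, adjusted p = 0.0499). With length taken out Mbtps2 lost its call (-0.26, adjusted p = 0.116) and Hsd17b12 was called lower (-0.46, adjusted p = 0.0141). In KO + AC libraries 2 of 31 rose, Acsl1, a long-chain acyl-CoA synthetase (0.39, adjusted p = 4.29e-09) and Rnf145, a ubiquitin ligase (0.12, adjusted p = 0.0354), and 2 fell, among them Mbtps1, the other SREBP protease (-0.17, adjusted p = 0.0087). Of all genes 6.58% rose and 4.75% fell there, so the share that rose was near that of all genes.

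With apoptotic cells 12 of the 31 rose and 11 fell in KO, and 11 rose and 10 fell in WT macrophages. Of all genes 49.6% rose and 36.7% fell in KO, and 48.3% and 36.7% in WT, so these counts do not exceed the shares of all genes. Tmem97, a sterol-responsive membrane protein, fell by 2.06 in KO and 1.61 in WT, and Insig2, the partner of Insig1, by 1.25 in WT. Rnf145 and Acsl1 rose in KO, by 1.415 and 1.38. Acacb, the mitochondrial acetyl-CoA carboxylase, had 5.51 ± 0.37 CPM in KO + AC and 5.66 ± 0.371 CPM in WT + AC, against 0.212 ± 0.133 CPM in KO and 0.203 ± 0.0683 CPM in WT libraries. In the interaction 4 of the 31 were higher and 2 lower, beside 7.55% and 5.13% of all genes. The smallest p belonged to Acsl4 (0.68, adjusted p = 0.000828), Acsl1 (0.54, adjusted p = 0.00728), Mbtps2 (0.50, adjusted p = 0.0154) and Aacs (-0.54, adjusted p = 0.0184).

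The liver X receptors answer to oxysterols and act against cholesterol load, and 9 of their genes and targets were also examined. In KO + AC libraries 4 of the 9 rose, Apoe (0.29), Mylip (0.43), Pltp (0.27) and Abca1 (0.14), with adjusted p of 2.39e-08, 3.57e-08, 5.41e-08 and 0.00426. None fell, also by DESeq2 or at an unadjusted p under 0.05. Of all genes 6.58% rose and 4.75% fell in this contrast. These calls, like those of the other pathway genes in this contrast, came from the fit within the libraries with apoptotic cells. The joint fit of all 12 libraries called 0.934% of all genes there. Macrophage markers were also higher for 4 of 7 in KO + AC libraries, and their part in these rises was not tested. Without apoptotic cells Nr1h3, the gene of LXR alpha, rose in KO macrophages (0.41, adjusted p = 0.0385). With length taken out it was no longer called (0.29, adjusted p = 0.105), while Abcg1 was called higher (0.41, adjusted p = 0.0226). With apoptotic cells 3 rose and 5 fell in either genotype, where 49.6% of all genes rose in KO, 48.3% in WT, and 36.7% fell in each. Abca1, the cholesterol exporter, rose by 1.76 in KO and 1.38 in WT, and Abcg1, its partner, fell by 1.76 in KO and 1.41 in WT.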

How the data were processed

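Poly(A) RNA of 12 mouse macrophage libraries was sequenced as paired-end reads, per the labels' protocols. The authors deposited raw read counts per gene symbol, 1 table without and 1 with apoptotic cells, made with fastp, HISAT2 2.0.5 and mm10 per the submitters' processing notes. The counter, its annotation and its use of strand were not given in sources used here. Total counts ran from 17000976 to 18770757 per library.

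After filterByExpr by group and TMM scaling, a two-sided, robust quasi-likelihood test (edgeR 4.0.16, R 4.3.3) was run, and genes were called at a Benjamini-Hochberg adjusted p under 0.05 over all genes tested. Genotypes were compared within a table. The effects of apoptotic cells and the interaction came from 1 joint fit on the 54582 shared symbols. SEs derive from the test statistic, and 95% intervals of log2 fold changes from the same fits. CPM are TMM-scaled over the 12 libraries. Simulated counts were run through the fits for both genotype contrasts and for apoptotic cells in KO. They gave each gene the same spread in all groups, so they do not test the unequal spread of the conditions.

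Exonic lengths and positions are from GENCODE vM21 (GRCm38), and promoter windows from RefSeq (GRCm38.p6). The length correction removed a loess (span 0.5) of each library's log2 deviation on log2 length. Alternatives were DESeq2 1.42.0, its size factors, no filter, a replicate block, a joint or 6-library fit, length, and leaving out libraries. Values in every library are given for the 4 members with the smallest p in a comparison and the smallest of each role, and for other pathway and liver X receptor genes up to 4 with the smallest p. The values of 1 of these other genes are not reported here. The members and lists were chosen with earlier results of these data known.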

Additional observations from a re-analysis of the deposited data

Results flagged for a closer look

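The effect of apoptotic cells differed between KO and WT macrophages, by edgeR's test of the interaction, in 4 members (13.3%), beside 12.7% of 16810 genes, a share near that of all genes. The log2 interaction was 0.61 for Idi1 (adjusted p = 0.00583), -0.64 for Mvd (adjusted p = 0.00657), -0.60 for Fads2 (adjusted p = 0.00989) and 0.38 for Hmgcs1 (adjusted p = 0.0448), whose call held in only 4 of 18 alternatives. Idi1 is uncertain, since 23.6% of its 75-base stretches also occur in other genes.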

How the results depend on the processing

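Over the alternatives, 1877 values of single members kept their side of the threshold, 43 passed only there and 84 were lost there. Values called in neither fit count among the 1877 even where their sign changed. A further 4 turned round where the main fit or the alternative called the gene. The 4 came with the length correction: log2 values of -0.12 for Acaca in KO and -0.10 for Acaca, -0.26 for Sqle (adjusted p = 0.0085) and -0.61 for Lss (adjusted p = 4.16e-06) in WT, all for apoptotic cells, where Acaca fell short of a call. That correction also left 4 members higher with apoptotic cells in KO, and gave 2 lower in KO against WT and 3 higher in KO + AC against WT + AC. Without apoptotic cells, 2 members were lower by DESeq2, 2 with no filter and 3 in the joint fit. Without KO libraries 1 and 2 together, a fit with 1 KO library left, 0 were higher and 0 lower (3 and 1 at an unadjusted p under 0.05), and 1 was higher and 1 lower in the interaction. With apoptotic cells the joint fit called 0 higher and 0 lower. The interaction called 1 higher with DESeq2's size factors, 1 with no filter and 1 with the replicate block. The replicate numbers were not taken as pairs. Same-numbered KO and WT libraries had r of -0.204, -0.00143 and 0.112 across genes, and KO + AC and WT + AC libraries 0.0207, -0.0687 and -0.0805. With 3 libraries per group these values show no pairing but cannot exclude it.

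Leaving out 1 library at a time gave 0 to 5 higher and 1 to 3 lower for KO against WT, 0 to 1 higher and 5 to 7 lower for KO + AC against WT + AC, 8 to 9 higher and 15 to 16 lower for apoptotic cells in KO, 7 to 9 higher and 15 lower in WT, and 1 to 3 higher and 2 to 7 lower for the interaction. The cause of these shifts was not tested beyond length and the libraries named. Fdps, at about 1 CPM, had few counts and the widest errors of all members, and 23.5% of its 75-base stretches also occur in other genes.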
